A study of Mus musculus with 6 samples.

Results

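The 93 genes described here encode actin and the proteins that bind it, myosins, tubulins and the proteins that bind microtubules, and intermediate filament proteins. They are the genes among the 10580 of the deposited results table whose symbols match those families, within a table that the authors had limited by their comparison of the stages. They are 0.879% of the listed genes. The table comes from bulk RNA-seq of mouse Leydig cells, the steroid-producing cells of the testis interstitium, in 6 libraries. Fetal Leydig cells (FLCs) were isolated at E18.5 and adult Leydig cells (ALCs) at P100, with 3 libraries for each stage. All cells came from XY males heterozygous for the Nr5a1-GFP transgene, bred with outbred CD-1 mice, and both stages carried the transgene. The cells were sorted for strong GFP, which Sertoli cells, the somatic cells of the tubules, also carry at a lower level, and FLCs from several sorts were pooled to obtain enough RNA.

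The single measurement used for each gene was the authors' mean, its normalized read count averaged over all 6 libraries of both stages together. Counts had been scaled for library depth by the authors, and no value for a single library was used here, so no mean has an SD or a number of replicates. The difference between FLCs and ALCs, which the study set out to measure, was therefore not examined, and a mean describes neither stage alone. Every listed gene had passed the adjusted p limit of 0.05 in the authors' own comparison of the stages. Genes outside that list were not analysed here. The annotation holds 195 protein-coding genes under the chosen symbols, of which 93, or 47.7%, were listed. Counts of listed genes are therefore not counts of expressed genes. The share listed over all genes that the authors tested was not computed. Counts of listed genes, also on the gene lists below, can therefore not be read as high or low. The depth of each library is unknown, while the means of all listed genes summed to 22228751 normalized counts. A long transcript gives more reads than a short one at the same abundance, so each mean was also divided by the total length of the gene's annotated exons (GENCODE M21). Such a level is given as normalized counts per kilobase, and it is the scale on which genes can be compared. Orders and ranks by mean say where the reads lay and not which transcript was more abundant. No spread stands behind either quantity, so it was not possible to say which neighbours in an order of levels differ beyond error.

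The cytoskeleton is built from actin filaments, microtubules and intermediate filaments. Actin filaments grow and shorten at their ends under the control of severing and monomer-binding proteins, and myosins pull on them. Microtubules are hollow tubes of paired alpha- and beta-tubulin that carry cargo and form the spindle and the axoneme. Intermediate filaments give mechanical strength, and their members, from keratins to the nuclear lamins, are used in a strongly cell-type-dependent way. In steroid-producing cells, both actin filaments and microtubules lie close to lipid droplets and mitochondria, between which cholesterol moves before it is converted to steroids.

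Tuba3a and Tuba3b, a pair of alpha-tubulin genes best known from male germ cells, show how alike the sequences of one family can be. Their means were 357.7 and 363.6 normalized counts, or 237 and 205 per kilobase, so that Tuba3b stood at 0.864 of Tuba3a on the latter scale. Their coding sequences have the same length, 1350 bases, and differ at 41 of them, and no difference changes an encoded residue. The longest stretch without a difference is 155 bases, and 9 such stretches reach 50 bases, the window length used below. The 90 bases of coding sequence that hold the most differences, coding positions 274 to 363, are shown because they are where reads can best tell the genes apart. Both were read 5′ to 3′ from the transcripts of GRCm38, Tuba3a from the minus strand at chr6:125282365-125282454 and Tuba3b from the plus strand at chr6:145618779-145618868. Capitals mark the 11 bases that differ between them.
Tuba3a: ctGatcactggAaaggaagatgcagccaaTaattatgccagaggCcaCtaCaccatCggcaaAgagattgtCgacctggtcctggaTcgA
Tuba3b: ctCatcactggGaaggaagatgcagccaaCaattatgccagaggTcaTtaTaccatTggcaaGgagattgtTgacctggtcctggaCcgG

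The next sequences are shown because they carry a CArG box, the element that serum response factor binds and that lies in front of many contractile genes. They are RefSeq promoter windows (GRCm38.p6) of 300 bases, from 250 bases before to 50 bases after the transcription start, and capitals mark the CArG box. Vcl, on the plus strand at chr14:20929148-20929447, encodes vinculin, which ties actin filaments to integrin adhesions. Myl9, on the plus strand at chr2:156775214-156775513, encodes a regulatory light chain of myosin II. Cnn2, on the plus strand at chr10:79988350-79988649, encodes a calponin, which binds actin filaments.
Vcl: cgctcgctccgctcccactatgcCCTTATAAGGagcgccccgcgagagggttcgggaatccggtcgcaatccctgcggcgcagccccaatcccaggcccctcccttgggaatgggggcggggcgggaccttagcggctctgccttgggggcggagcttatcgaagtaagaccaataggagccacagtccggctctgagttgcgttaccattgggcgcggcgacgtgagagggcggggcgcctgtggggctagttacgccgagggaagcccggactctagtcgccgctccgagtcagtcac
Myl9: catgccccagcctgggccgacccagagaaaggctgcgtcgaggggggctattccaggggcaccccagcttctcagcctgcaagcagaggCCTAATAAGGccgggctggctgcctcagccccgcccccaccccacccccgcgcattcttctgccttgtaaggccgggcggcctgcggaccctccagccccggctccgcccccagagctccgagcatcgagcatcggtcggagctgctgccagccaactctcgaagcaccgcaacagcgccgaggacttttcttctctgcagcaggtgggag
Cnn2: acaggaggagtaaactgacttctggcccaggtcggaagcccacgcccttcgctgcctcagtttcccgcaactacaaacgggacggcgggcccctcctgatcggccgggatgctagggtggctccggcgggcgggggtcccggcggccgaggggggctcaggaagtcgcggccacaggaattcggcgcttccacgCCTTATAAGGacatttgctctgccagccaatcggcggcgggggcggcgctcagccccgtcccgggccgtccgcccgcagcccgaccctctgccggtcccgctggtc

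Before the members were described, markers of cell types were looked up among the listed genes. A marker is listed only where it passed the adjusted p limit of the stage comparison. One that is not listed may still be expressed, so the purity of the cells was not tested. All 5 Leydig genes looked for were listed, between 87502 normalized counts for Star, which brings cholesterol into mitochondria, and 283675 for Cyp17a1, an enzyme of androgen synthesis. Of 6 markers of peritubular myoid cells, the smooth-muscle-like cells around the tubules, Actg2 was listed, at 163.3. Of 3 Sertoli markers, Dhh was listed at 89.03 and Amh at 137.3. The immune markers Csf1r, Emr1 and Cxcl2 had means of 981.8, 177.4 and 11.6, the germ cell marker Ddx4 had 184.2, and the endothelial marker Esam had 102.3. The progenitor marker Tcf21 had 216.1. Most of these means of markers of other cells lie in the same range as the lower cytoskeletal genes described below. In bulk RNA, a low level in every cell and a high level in a few cells cannot be told apart, and the part of other cells in the members' levels was not tested.

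The 93 members together held 138582 normalized counts, 0.623% of the sum over all listed genes. Their median mean was 388.7 normalized counts, against 678.5 for all listed genes, and their middle quartiles ran from 41.7 to 1627, against 119.2 to 1928. Of the members, 40 lay above the median of the listed genes and 53 below it. After division by exon length, the median was 82.6 normalized counts per kilobase against 147 for the listed genes, with 35 members above and 58 below. The range within the members was wide. A mean of at least 1000 normalized counts was found for 33 members, 29 had 100 to 1000, 23 had 10 to 100, and 8 had less than 10. The 10 members with the highest means held 55.0% of the members' sum.

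**Figure D1:**
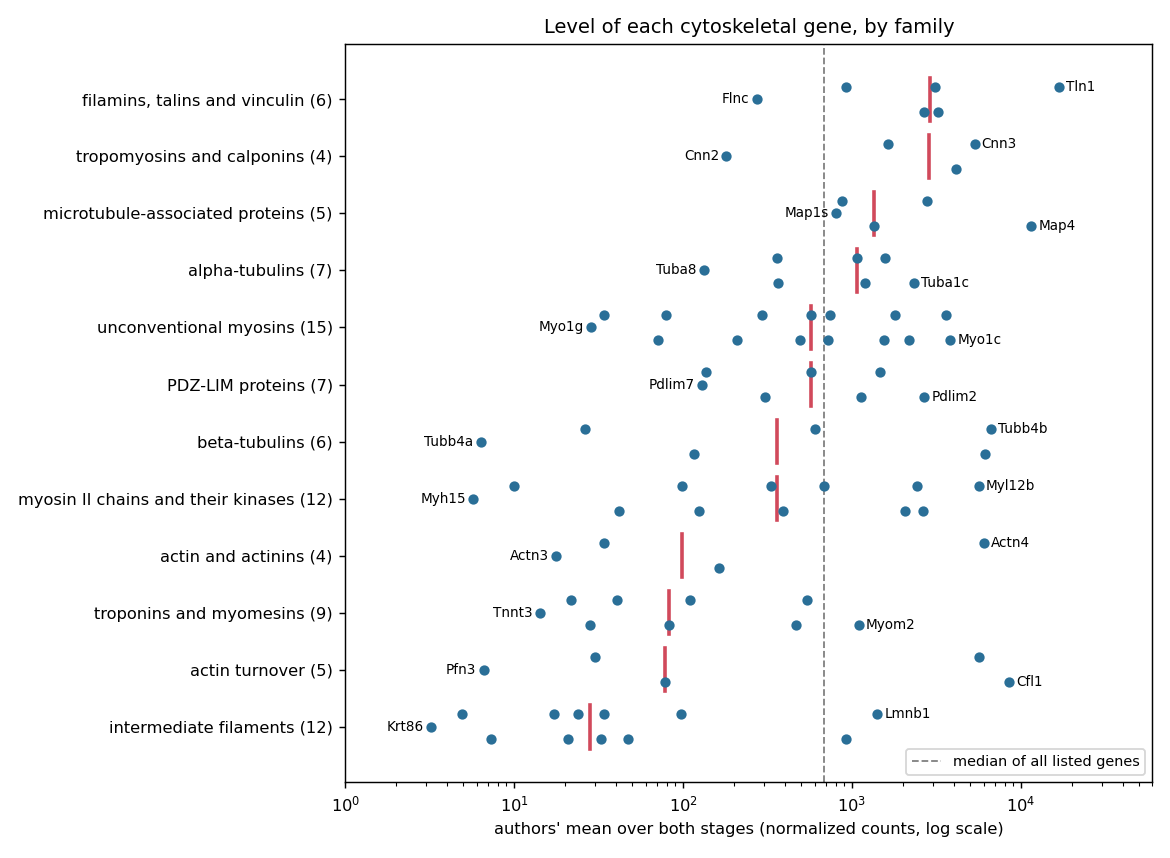
Each point is 1 gene, placed on a logarithmic horizontal axis by the authors' mean over both stages in normalized counts, with families in rows and the number of genes in brackets. Red bars are family medians and the dashed line is the median of all listed genes, 678.5. Filamins, talins and vinculin and the tropomyosins and calponins have medians of 2877 and 2869, whereas the median of the listed intermediate filament genes is 28.3. Tnni3k, at 5.06, is not drawn.

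The actin group held 1 actin and 3 actinins. Of the 7 conventional actin genes, Actg2, the smooth muscle gamma-actin, was listed, with a mean of 163.3 normalized counts, or 105 per kilobase. Actinins are rod-shaped proteins that cross-link actin filaments. Actn4, the nonmuscle form, had 6008 normalized counts, while the striated muscle forms Actn2 and Actn3 had 33.9 and 17.8. Per kilobase, Actn4 stood at 980.5 and exceeded Actn2 109.7-fold. Actn4 alone held 96.5% of the group's sum and 89.1% of its sum per kilobase.

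Among the genes of actin turnover, Cfl1 and Cap1 were high and the others low. Cofilin, encoded by Cfl1, severs old filaments, and Cap1 helps cofilin and recharges actin monomers. Cfl1 had 8546 normalized counts and, at 3005 per kilobase, the second highest level per length of exons among all members. Cap1 had 5652 normalized counts, or 1618 per kilobase, which was 223.5-fold above its paralogue Cap2, a form of heart and skeletal muscle, at 7.24 per kilobase. The profilins Pfn3 and Pfn4, which are known from germ cells of the testis, had means of 6.58 and 77.7 normalized counts. All of Pfn3's 50-base windows match the opposite strand of Slc34a1. Whether reads were counted by strand is not stated in the sources used here.

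Of 27 genes on a list for actin turnover, 17 were listed, among them the 5 members above. Of the other 12, which lie outside the chosen symbols, 11 had a mean above the median of the listed genes. The Arp2/3 complex, which starts branched filaments, was represented by 6 genes, from Arpc5l at 375.5 normalized counts per kilobase to Arpc2 at 1891. Capzb, a subunit of the protein that caps growing ends, had 1639 per kilobase. Wdr1, a partner of cofilin, had 452 per kilobase. Tmsb4x and Tmsb10, which hold actin monomers in reserve, had 789 and 273 per kilobase.

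Tropomyosins run along the actin filament and calponins steady it. Cnn3, the calponin of nonmuscle cells, had a mean of 5306 normalized counts, or 1747 per kilobase, and Cnn2 had 180.1, or 73.2 per kilobase. The ratio of Cnn3 to Cnn2 was 23.9 per kilobase. Tpm3 and Tpm2 had 4110.1 and 1627 normalized counts, and their levels per kilobase, 675 and 559, differed 1.21-fold. Divided by the longest transcript instead, they lay further apart, at 1731 and 748. Of Tpm3's 50-base windows, 23.2% also occur in the related annotated gene Tpm3-rs7, so that part of its count may be shared with it. Tpm2 and Tln1 are neighbours on chromosome 4, 7753 bases apart.

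The proteins that join actin to the membrane and to adhesions had the highest family sum in normalized counts. Talin binds integrins and pulls on them through actin. Tln1 had the highest mean of all members, 16689.8 normalized counts, and ranked 138 among the 10580 listed genes. Tln2, the second talin, had 915 normalized counts, and per kilobase Tln1 exceeded it 34.2-fold, at 1703 against 49.9. The filamins, which cross-link actin into networks, had 3244 normalized counts for Flna and 272.5 for Flnc, the form of striated muscle. Per kilobase, Flna had 345 and Flnc 29.0. Vcl had 2667 normalized counts, or 326 per kilobase. This family held 19.4% of the members' sum in normalized counts but 9.19% of it per kilobase, since its transcripts are long.

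PDZ-LIM proteins anchor kinases and other partners to actinin and the actin bundle. All 6 Pdlim genes that the annotation holds under these symbols were listed, and Ldb3, a member of the same family found at the Z-disc of muscle, made 7. Pdlim2 was the highest, with 2677 normalized counts, or 597 per kilobase. Pdlim4 followed per kilobase at 442, above Pdlim5 at 166, although Pdlim5 had the larger mean, 1471 against 1131 normalized counts. Ldb3 had 568, Pdlim1 had 304, Pdlim3 had 137 and Pdlim7 had 129 normalized counts.

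Nonmuscle myosin II is the motor that makes actin bundles contract, and 5 of the 7 genes looked for were listed. Myl12b, a regulatory light chain, had 5606 normalized counts, or 2024 per kilobase, the third highest level per length of exons among all members. Myl6, the essential light chain, had 831 per kilobase and Myl9 had 591. The heavy chains Myh10 and Myh14 had 198 and 45.4 per kilobase, which is 4.36-fold apart. Mylk, the kinase that switches myosin II on, had 2428 normalized counts, or 216 per kilobase, and exceeded Mylk3, the kinase of heart muscle, 22.1-fold per kilobase. Among the remaining members of the myosin II family, Myh7 of slow and cardiac muscle had a mean of 388.7 normalized counts and Myh8, a perinatal muscle form, had 124.8. Myl4, an atrial and embryonic light chain, had 98.4. Myl10 and Myh15 were under 10, at 9.96 and 5.71. Of Myh7's windows 15.6% occur in another gene, nearly all in Myh6, and of Myh8's windows 12.1% do, so part of these low levels may be shared reads.

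The unconventional myosins do not form bundles and act on membranes and organelles. The 15 listed genes ranged from 28.6 normalized counts for Myo1g to 3820.2 for Myo1c, and 7 of them lay above the median of the listed genes. Myo1c, a motor that links membranes to actin, had 580.1 per kilobase, the highest of the group. Myo9b followed at 291, and Myo18a, found at the Golgi, had 224. In normalized counts, Myo18a had 3587, Myo9b had 2184 and Myo9a had 1804. Myo19, a motor of mitochondria, had 719.8 normalized counts and Myo1e, of adhesions and endocytosis, had 572.6. Myo7a and Myo15, both known for their place in the hair cells of the ear, had 292 and 79.7. Myo1f and Myo1g, which are mostly found in blood cells, had 71.4 and 28.6. Per kilobase, 3 of the 15 lay above the median of the listed genes.

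The troponins and myomesins belong to the sarcomere of striated muscle, in which troponin puts calcium control on the thin filament and myomesin cross-links the thick filaments. Of the 30 genes on the striated muscle list, 16 were listed, 15 of them members, and their means ran from 14.2 to 1096 normalized counts with a median of 90.7. Tnni3, the cardiac inhibitory subunit, was the highest troponin, at 467.9 normalized counts, or 227 per kilobase. The calcium-binding subunit Tnnc1 had 21.8, and the tropomyosin-binding subunits Tnnt2 and Tnnt3 had 110.1 and 14.2. Tnni1 and Tnni2, of slow and fast muscle, had 83.0 and 40.7. Myom2 had 1096 normalized counts, Myom3 had 539 and Myom1 had 28.1. In the whole family, Tnni3 was the only member above the listed median of 147 per kilobase. Tnni3k, which encodes a protein kinase and no cytoskeletal protein, was taken by its symbol, with a mean of 5.06.

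Tubulin genes were among the highest members per length. The 7 alpha-tubulin genes summed to 7008 normalized counts and the 6 beta-tubulin genes to 13554, a ratio of beta to alpha of 1.93. Per kilobase, the ratio was 1.64, and per kilobase of coding sequence it was 1.97. Microtubules hold both in equal amounts. All 7 alpha-tubulin genes that the annotation holds under these symbols were listed, as were 6 of 8 beta-tubulin genes, and the others were not analysed here. Tubb4b and Tubb5 held 94.4% of the beta-tubulin sum. Tubb4b, a beta-tubulin of most tissues that is also common in cilia, had 6638 normalized counts. At 3179 per kilobase of annotated exons, it had the highest level of all members on that scale. Places among the highest depended on the length used. Per kilobase of coding sequence, Tubb4b had 4972, below Cfl1 at 12550, Myl12b at 10863, Myl6 at 5584 and Cnn3 at 5360. Tubb5, a beta-tubulin found in most tissues, had 6161 normalized counts, or 1852 per kilobase. Per kilobase, Tubb4b stood 1.72-fold above Tubb5.

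The other beta-tubulins were far lower. Tubb3, used as a marker of neurons, had 606.9 normalized counts, or 325 per kilobase. Tubb2a had 115.5 and its neighbour Tubb2b had 26.4, and 45.6% of Tubb2a's windows occur in Tubb2b. Tubb4a, a brain form, had 6.34. Among the alpha-tubulins, Tuba1a, Tuba1b and Tuba1c together had 5080.2 normalized counts, 72.5% of the alpha sum. Their coding sequences are 97.1% to 98.3% identical, and 52.7% to 72.9% of their windows occur in another gene. The split between them is therefore uncertain. In addition, 33.6% to 54.6% of their windows match the opposite strand of another gene, mostly AC157548.1, which may bear on their sum as well. Singly, the genes had 1012 per kilobase for Tuba1c, 870 for Tuba1a and 639 for Tuba1b. Tuba4a, an alpha-tubulin encoded without the final tyrosine, had 290.1 per kilobase, and 34.6% of its windows match the opposite strand of Stk16. Tuba8 had 132.7 normalized counts. The order of Tuba3a and Tuba3b turned with the scale, from 357.7 below 363.6 in normalized counts to 237 above 205 per kilobase. Their annotated exons measure 1509 and 1775 bases. Per kilobase of coding sequence, which has the same length in both, the order did not turn, with 264.9 and 269.4.

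**Figure D2:**
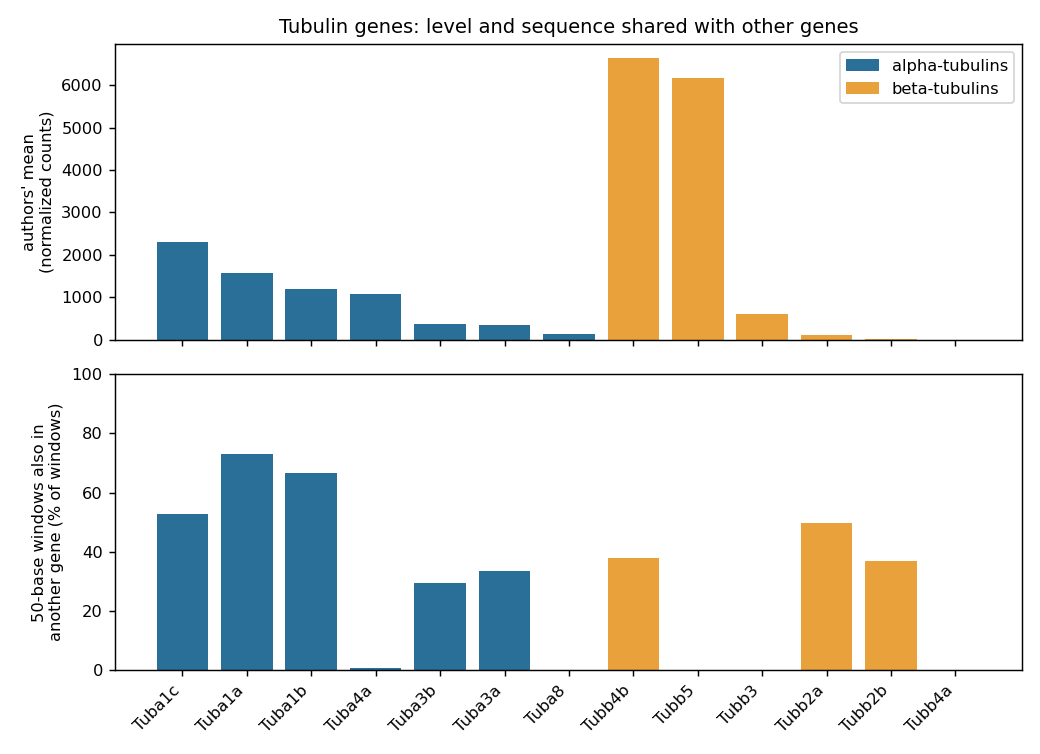
The upper bars give the authors' mean of each tubulin gene in normalized counts and the lower bars the percentage of its 50-base windows that also occur in another annotated gene. Tubb4b and Tubb5 stand at 6638 and 6161, with 37.8% and 0.0892% of their windows shared, and Tuba1c is the highest alpha-tubulin at 2315.

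All 8 tubulin, actin-like and profilin genes on the list for spermatids, the haploid germ cells, were listed. The list was chosen with earlier results of these data known, so this count was not a test. For comparison, 47.7% of all annotated genes under the chosen symbols were listed, as were 76.5% of the tubulins and 40% of the profilins. Actl7a and Actl7b lie outside those symbols. Being listed reflects the stage comparison. Tubb4b, at 6638 normalized counts, is expressed well beyond the germ line. The others had means from 6.58 for Pfn3 to 363.6 for Tuba3b, and Actl7a and Actl7b, actin-related genes of the spermatid head, had 137.3 and 203.0. The germ cell marker Ddx4 lay in the same range, at 184.2. The part of germ cells in these values was not tested.

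Microtubule-associated proteins bind along the tubule and steady it. Map4, the form of most nonneuronal cells, had the second highest mean of all members, 11536 normalized counts, or 762 per kilobase. Mapt, the tau gene known from axons, had 2767 normalized counts, or 367 per kilobase, and Map4 exceeded it 2.07-fold per kilobase. Map1a, Map7 and Map1s had 1354, 868 and 806 normalized counts, and lay between 101 and 111 per kilobase. On the list of neuronal cytoskeleton genes, 6 of 9 were listed, and Mapt and Tubb3 stood apart from the others. Mapt and Tubb3 were 1.13-fold apart per kilobase, while Mapt exceeded the neurofilament gene Nefl 36.4-fold. Nefl, Nefm, Nes and Tubb2b had 34.1, 23.7, 46.9 and 26.4 normalized counts.

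Proteins that fold, modify and track tubulin were measured outside the chosen symbols, with 12 of 23 listed and 8 of these above the listed median. Mapre1, which rides on growing tubule ends, had 573.3 normalized counts per kilobase. The folding cofactors Tbca and Tbcb had 1440 and 1245 per kilobase. Stmn1, which sequesters tubulin, had 24.4 per kilobase, and Ttl and Vash2, which put on and take off the last tyrosine of alpha-tubulin, had 95.8 and 24.2.

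The listed intermediate filament genes had the lowest median of the 12 families with more than 1 gene. Vim, Des and Krt8, which the chosen symbols also take, were not listed. The median does not cover them and does not give the level of intermediate filament genes as a whole. The 12 listed genes held 1.89% of the members' sum, with a median of 28.3 normalized counts, and 2 of them, both lamins, lay above the listed median. The lamins form the mesh under the nuclear envelope. Lmnb1 had 1406 normalized counts and Lmna had 923.8, and per kilobase Lmnb1 stood 3.00-fold above Lmna. The 7 keratins, filament proteins of epithelia, had means from 3.21 for Krt86 to 97.7 for Krt10, and the annotation holds 53 keratin genes under these symbols. Krt18, a keratin of simple epithelia, had 4.90. Krt20, Krt23 and Krt1 had 20.8, 32.8 and 17.1, and Krt7 had 7.28. Of Krt86's windows 43.3% occur in another gene, mostly in Krt81. Nes encodes nestin, an intermediate filament of progenitor cells, and had 46.9. Nefl and Nefm are annotated on opposite strands of chromosome 14, with Nefl inside the span of Nefm, and 31.8% of Nefl's windows lie opposite Nefm.

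**Figure D3:**
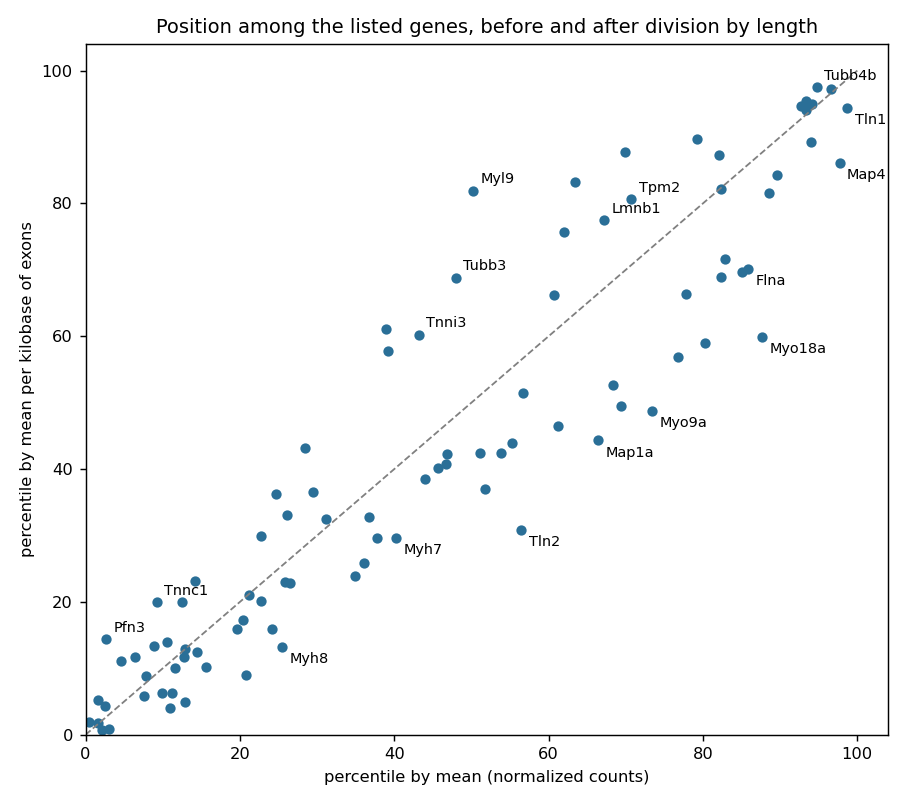
Each point is 1 member, with its percentile among all listed genes by mean in normalized counts on the horizontal axis and by mean per kilobase of exons on the vertical axis, and the dashed line marks equal percentiles. Genes with long exons such as Tln2 (56.5 and 30.9) and Myo18a (87.7 and 59.9) fall below the line, and genes with short ones such as Myl9 (50.2 and 81.9) and Tubb3 (47.9 and 68.8) rise above it.

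Across families, division by length reordered the totals. Filamins, talins and vinculin came first by sum of normalized counts, with 19.4%, followed by the microtubule-associated proteins with 12.5% and the unconventional myosins with 11.7%. Per kilobase of annotated exons, the beta-tubulins came first with 17.9%, followed by actin turnover with 15.4% and the myosin II family with 13.2%. The alpha-tubulins rose from 5.06% to 10.9%, and the microtubule-associated proteins fell to 4.78%. Single genes moved in the same way. Myl9, with 1162 bases of exons, stood at percentile 50.2 by mean and 81.9 per kilobase. Tln2, with 18357 bases, stood at 56.5 and 30.9. The order of families depends on the length used, and family shares were not computed by coding length. Per kilobase of coding sequence, Cfl1 at 12550 and Myl12b at 10863 lay above Tubb4b at 4972.

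How far reads could be assigned to 1 gene differed between members. For 47 members, no 50-base window of their transcripts occurs in another gene, and for 27 the share was under 1%. A share of 1% to 20% was found for 8 members and one of at least 20% for 11. These 11 were Tuba1a, Tuba1b, Tuba1c, Tuba3a, Tuba3b, Tubb2a, Tubb2b, Tubb4b, Krt86, Myl12b and Tpm3, and 8 of them are thus tubulins. For Tubb4b, 32.4% of the windows recur in the pseudogene Tubb4b-ps1. For Myl12b, the 25.4% recur in a second annotated gene that carries the same symbol. For 12 members, at least 10% of the windows match the opposite strand of another gene's transcript. Among them were 25.1% for Vcl with Ap3m1 and 23.3% for Myo1h with Kctd10. Letters alone were compared, and overlap in the genome was not tested.

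In the genome, the members lay on 20 chromosomes, with 14 of the 93 on chromosome 11. Within 100000 bases of each other lay 12 pairs of neighbouring members. The troponin genes form pairs, with Tnni1 and Tnnt2 25364 bases apart on chromosome 1 at means of 83.0 and 110.1 normalized counts, and Tnni2 and Tnnt3 54425 bases apart on chromosome 7 at 40.7 and 14.2. On chromosome 15, Tuba1b, Tuba1a and Tuba1c lie in a row and all exceeded 1000 normalized counts. Myl12b and Myom1, on chromosome 17, are 11742 bases apart and had means of 5606 and 28.1.

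Promoter windows from RefSeq were found for 76 of the 93 members, 81.7% of them, and for 8172 listed genes. Where a gene had several, the window nearest its annotated start was used. Reads from other starts of the gene are in its mean all the same. Promoters of genes active in most tissues tend to be rich in the dinucleotide CG, which is measured as its observed number over that expected from the base composition. The ratio was at least 0.6 for 38 members, 50.0% of the 76, and for 63.2% of the listed genes. The members at or above 0.6 had a median mean of 1102 normalized counts, and those below had 172.9. The same medians over all listed genes were 1063 and 198.7, so the members followed the listed genes here. Across genes, Spearman's correlation of the ratio with the mean was 0.41 over the 76 members and 0.37 over the 8172 listed genes, and genes are not independent replicates.

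**Figure D4:**
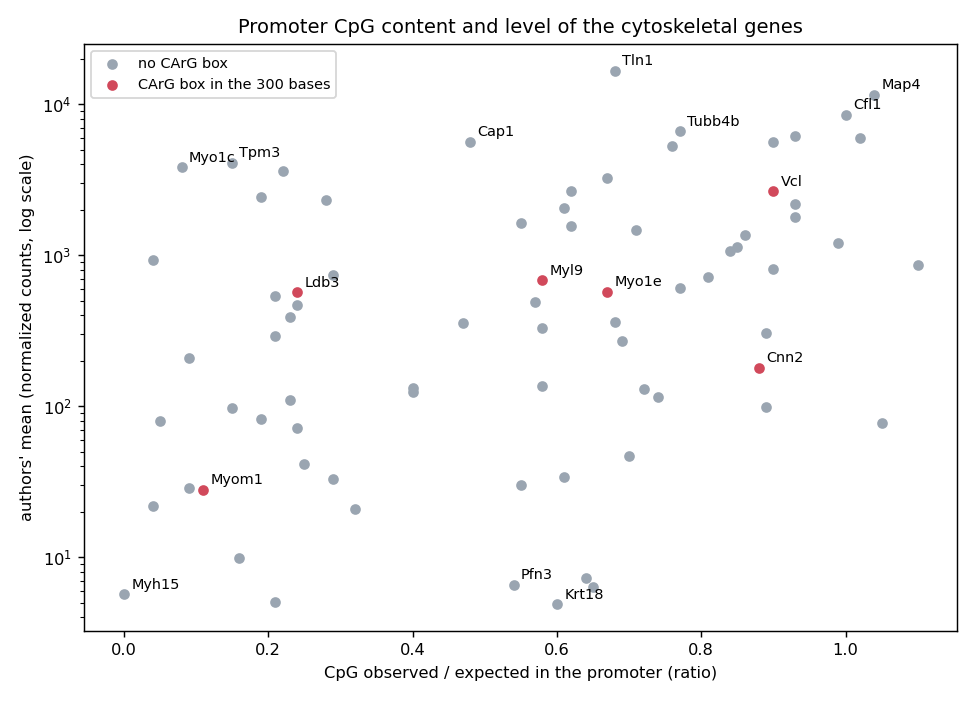
Each point is 1 of the 76 members with a promoter window, with the observed over expected CG ratio of the 300 bases on the horizontal axis and the authors' mean in normalized counts on a logarithmic vertical axis. Red points are the 6 members with a CArG box. Map4 and Cfl1 are high at both. Myo1c at 3820.2 and Tpm3 at 4110.1 are high with ratios of 0.08 and 0.15 in the window used. Which transcription start gave their reads was not tested.

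Short sequence elements were searched in the windows on both strands. The CArG box, searched by its 10-letter form, was present in 6 of the 76 members, or 7.89%, against 1.38% of the listed genes and 1.64% of all 32544 promoter windows. The members were Vcl, Myl9 and Cnn2, shown above, and Ldb3, Myo1e and Myom1. The box began 227 bases before the start in Vcl, 161 in Myl9, 99 in Myom1, 56 in Cnn2, 35 in Ldb3 and 32 in Myo1e. The means of these genes spread from 28.1 normalized counts for Myom1 to 2667 for Vcl. The letters TATAAA, which can fall inside a CArG box but did so in none of these 6, were present in 7.89% of the members and 7.68% of the listed genes, the members being Krt10, Krt20, Myh8, Myh15, Tubb2a and Tubb4b. GGGCGG was found in 53.9% of the members and 60.4% of the listed genes, and CCAAT in 38.2% and 38.3%. AAGGTCA, the letters that NR5A1 binds, were present in 2.63% of the members, Krt20 and Tpm3, and in 3.38% of the listed genes. A match of letters does not show that a factor binds there.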

How the data were processed

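RNA of sorted GFP-positive cells was sequenced from 3 libraries of fetal (E18.5) and 3 of adult (P100) Leydig cells. The labels name a stranded total RNA kit with ribosomal depletion. The submitters' processing notes name CASAVA 1.8.2 and GRCm38, and the study counted reads per gene and used DESeq2. The deposited values used here, of unit signal, are each gene's mean of size-factor-normalized counts over all 6 libraries, as computed by the authors. The other 5 value columns hold the authors' comparison of the stages (fold change, its error, statistic, p-value and adjusted p) and were not used. The adjusted p was read once, to check what the table was filtered on, and all 10580 rows lay below 0.05. The planned test of the stages on counts per library was not made, since the table used has a mean only.

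Symbols matched GENCODE M21 directly for 10223 genes and through older symbols for 299, and 58 had no match and no length. Exon length was the union of annotated exons. A window of 50 bases was shared where the same letters occur on the same strand in a transcript of another gene. It matched the opposite strand where its reverse complement occurs in such a transcript. The search recovered the shared windows of simulated sequences. Promoters were RefSeq windows of GRCm38.p6, for each gene the window nearest its annotated start. Members and lists were chosen with earlier results of these data known. The text names, in each family, the member with the highest mean and those next to it, the 10 highest by mean and per kilobase, and listed genes of the pathway and marker lists. Other lengths, filters on low means, sums per kilobase and leaving out Tnni3k were tried. Python 3.11.15, pandas 2.3.3, scipy 1.17.1 and matplotlib 3.10.9 were used. The values of some genes are not reported here.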

Additional observations from a re-analysis of the deposited data

How the results depend on the processing

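Counts were read as changed when over 1.5 times apart, and shares when outside the 95% Wilson interval of the reported share. That interval took sums of normalized means as if they were numbers of reads. It served as a limit for labelling and does not measure counting error. By these limits 12 of 24 alternative values changed, all of them shares of a sum taken per kilobase in place of normalized counts. The families' shares per kilobase were 9.19% for filamins, talins and vinculin, 4.78% for microtubule-associated proteins, 6.11% for unconventional myosins, 13.2% for the myosin II family and 15.4% for actin turnover. They were 17.9% for beta-tubulins, 10.1% for tropomyosins and calponins, 10.9% for alpha-tubulins, 3.63% for actin and actinins and 2.45% for intermediate filaments. Tuba1c's share of the alpha-tubulins went from 33.0% to 30.6% and Tubb4b's share of the beta-tubulins from 49.0% to 58.4%. The moves follow from dividing by unequal lengths. Filters on low means left 85 or 62 of the 93 members. The number of members above the listed median lay between 31 and 40 in normalized counts and between 27 and 38 per kilobase.

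No paired analysis was possible because the values used are means over all 6 libraries. For the same reason, a test of the stages without each replicate in turn and one with another normalization were not run. Counting error cannot be given without depth per library.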
